A study of Mus musculus with 33 samples.

Results

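The genes described here were lowered in mouse quadriceps muscle 3 h after an injection of dexamethasone and stood near the saline level at 24 h, in mice without Actn3 and in wild-type mice alike. They are 90 of the 11985 genes whose mean over all 33 libraries was 1 CPM or more (CPM, the read count scaled to the total of the library), which is 0.751%, and the files list 23420 genes in all. The members were chosen from the measured values. A gene was taken when the difference dexamethasone minus saline, on the log2(CPM + 0.5) scale, was -1 or less at 3 h in both genotypes and lay between -0.4 and 0.4 at 24 h in both. A difference of -1 is a 2-fold lower level, and the 0.5 that is added makes differences of low genes look smaller than they are. Because the rule used the dexamethasone contrasts at both times, their values are given as a description and carry no test.

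RNA of the quadriceps, a thigh muscle made mostly of fast fibres, was sequenced from adult male C57BL6 mice. The KO mice are Actn3 null and so lack alpha-actinin-3, an actin crosslinker of the Z-disc in fast fibres, and the wild-type (WT) mice carry the gene. Each mouse was injected once, into the peritoneum, with 20 mg/kg dexamethasone sodium phosphate (Dex), a synthetic glucocorticoid, or with saline, and the series asks whether the genotype alters the response. The groups were KO Dex 3 h and WT Dex 3 h with 5 libraries each, KO Saline 3 h and WT Saline 3 h with 3 each, KO Dex 24 h and WT Dex 24 h with 5 each, KO Saline 24 h with 3 and WT Saline 24 h with 4. Whether every library comes from its own mouse is not said outright, so spreads and p-values measure the variation between libraries, part of which may be technical.

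Glucocorticoids bind a receptor that moves to the nucleus, raises many genes by binding DNA directly and lowers others, in many cases through other factors such as NF-kB and AP-1. Skeletal muscle is dense with capillaries, and a whole-muscle library holds RNA of fibres together with that of endothelial cells, fibroblasts, macrophages, smooth muscle and nerve. In endothelial cells the ETS family of transcription factors, of which Fli1 and Ets1 are members, sits at many cell-type genes, and Notch signalling from the ligand Dll4 restrains vessel sprouting. In bulk RNA, fewer cells of a type and less RNA per cell cannot be told apart.

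The members hold several kinds of genes, and the upstream regions of 4 of them are shown for how their motifs differ. Each line holds the 250 bases before the RefSeq gene start, read 5′ to 3′ on the gene's own strand from the RefSeq promoter table (GRCm38.p6, the build that mm10 names). Where that table lists several promoters of a gene, only the first was used, as for Egfl7 (3 listed), Efna1 (2) and Tnfaip3 (2). The capitals mark matches, on either strand, to a narrow form of the ETS site (CAGGAA), an AP-1 site (TGANTCA), an E-box (CACGTG) or the letters of a TATA box (TATAAA). Other forms of the ETS site were left unmarked. Myct1 and Pcdh18 are the members with the largest differences on the log2(CPM + 0.5) scale and Myct1 is the one shown, Egfl7 the most abundant endothelial member with a sequence in that table, Efna1 a membrane-bound ligand of Eph receptors, and Tnfaip3 an inhibitor of NF-kB signalling.
Myct1, chr10:5593478-5593727, plus strand: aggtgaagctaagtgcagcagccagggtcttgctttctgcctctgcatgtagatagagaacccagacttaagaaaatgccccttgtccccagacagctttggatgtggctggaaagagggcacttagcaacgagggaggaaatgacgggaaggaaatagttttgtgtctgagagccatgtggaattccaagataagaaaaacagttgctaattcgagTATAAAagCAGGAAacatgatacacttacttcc
Egfl7, chr2:26580833-26581082, plus strand: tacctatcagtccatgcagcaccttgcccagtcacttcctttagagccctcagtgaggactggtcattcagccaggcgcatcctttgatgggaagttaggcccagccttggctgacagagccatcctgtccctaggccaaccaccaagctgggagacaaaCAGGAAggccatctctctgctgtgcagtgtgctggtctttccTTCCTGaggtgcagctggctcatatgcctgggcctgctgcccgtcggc
Efna1, chr3:89280952-89281201, minus strand: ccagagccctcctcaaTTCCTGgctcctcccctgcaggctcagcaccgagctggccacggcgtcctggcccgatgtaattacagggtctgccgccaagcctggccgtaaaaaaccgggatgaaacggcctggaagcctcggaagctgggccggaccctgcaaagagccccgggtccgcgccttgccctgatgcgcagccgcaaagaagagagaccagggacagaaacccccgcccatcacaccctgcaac
Tnfaip3, chr10:19015411-19015660, minus strand: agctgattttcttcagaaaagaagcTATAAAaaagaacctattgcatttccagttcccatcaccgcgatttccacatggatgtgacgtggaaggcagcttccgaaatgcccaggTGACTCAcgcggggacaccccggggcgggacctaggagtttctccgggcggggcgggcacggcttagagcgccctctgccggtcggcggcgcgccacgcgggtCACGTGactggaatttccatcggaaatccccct
The Myct1 window held a TATA box and a CAGGAA match that begin 33 and 25 bases before the gene start. There were 2 CAGGAA matches in the Egfl7 window and 1 in the Efna1 window. The Tnfaip3 window held an AP-1 site, an E-box and the letters TATAAA, but no match to CAGGAA. These matches begin 136, 33 and 225 bases before the gene start. Sites of NF-kB were not marked in any of these windows, so unmarked letters do not exclude them. A match describes letters only, and its absence says nothing about a factor.

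The dexamethasone libraries at 3 h stood apart from every other library in the mean level of the 90 genes. For this level each gene's mean over the 33 libraries was subtracted from its log2(CPM + 0.5), and the results were averaged over the members. At 3 h it ran from -1.01 to -0.87 in KO Dex against 0.35 to 0.54 in KO Saline, and from -1.01 to -0.81 in WT Dex against 0.46 to 0.63 in WT Saline. At 24 h it ran from 0.30 to 0.57 in KO Dex against 0.33 to 0.60 in KO Saline, and from 0.29 to 0.49 in WT Dex against 0.30 to 0.39 in WT Saline. The gap at 3 h follows from the rule, as does the overlap at 24 h. Libraries held between 19.7 M and 42.8 M gene counts (median 29.9 M), and the targeted gene Actn3 measured 34.5 to 80.3 CPM in KO and 7096 to 9071 CPM in WT libraries.

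**Figure D1:**
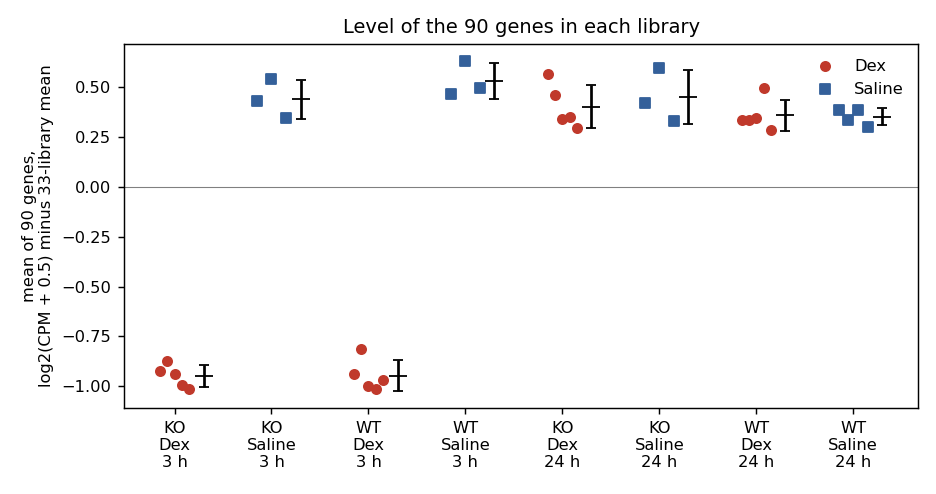
Mean level of the 90 genes in each of the 33 libraries (vertical axis, mean of log2(CPM + 0.5) minus the mean of each gene over all libraries), by group, with dexamethasone libraries as red circles, saline libraries as blue squares and the mean ± SD beside them. The 10 dexamethasone libraries at 3 h lie between -1.01 and -0.81, and all others between 0.29 and 0.63.

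The median difference of the 90 genes at 3 h was -1.31 in KO (range -2.70 to -1.002) and -1.39 in WT (range -2.83 to -1.01). Over all 11985 genes the medians were -0.02 in KO and -0.07 in WT, and 1.59% of genes in KO and 2.05% in WT had a difference of -1 or less. At 24 h the members' medians were -0.03 in KO and 0.02 in WT. Within that window 29 members lay below 0 in both genotypes, 29 above 0 in both and 32 on either side, and 40 lay within 0.2 of 0 in both. On this scale 8 members were at -2 or less in both genotypes at 3 h and 16 at -1.5 or less. By edgeR's fold changes, an alternative chosen after seeing the data, the counts were 13 and 32, and Selp, Cd300lb, Syt15, Fam167a and Apol10b were the 5 added at -2.

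No KO Dex library at 3 h overlapped the KO Saline libraries in any of the 90 genes, where 15.1% of the 11985 genes were lower without overlap. In WT 89 of the 90 did not overlap, against 18.8% of genes, and the exception was Dtx4, an E3 ubiquitin ligase of the deltex family that acts in Notch signalling. At 24 h, 2 members in KO (Asap3 and Timeless) and 1 in WT (Timeless) were lower without overlap, against 7.1% and 6.83% of genes. In the other direction 2 members in KO (Efna1 and Evi2a) and 3 in WT (Cd93, Podxl and Trib2) were higher without overlap, against 8.81% and 4.9% of genes. The rule used these contrasts, so these counts are descriptions of the members.

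**Figure D2:**
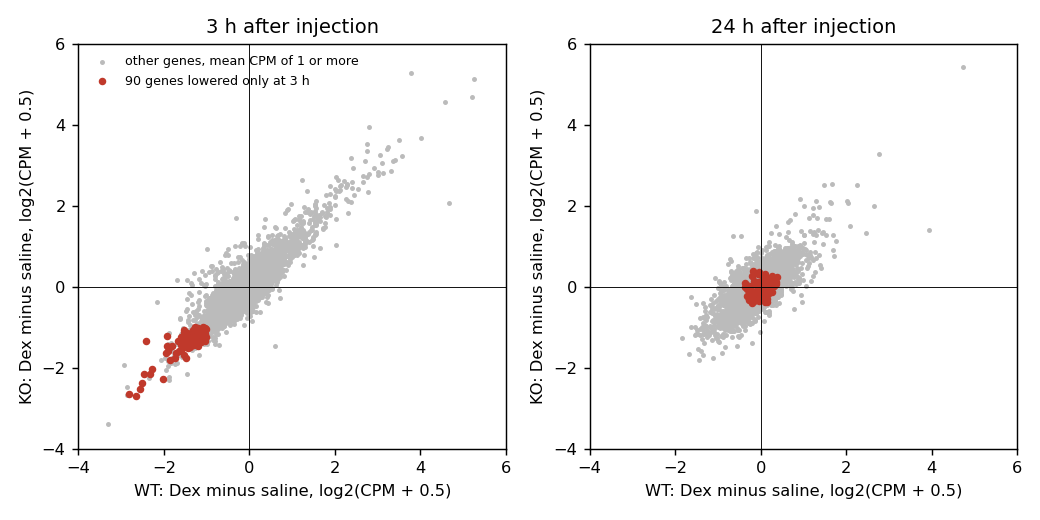
Difference dexamethasone minus saline on the log2(CPM + 0.5) scale in WT (horizontal axis) and KO (vertical axis), at 3 h (left) and 24 h (right), 1 point per gene with a mean CPM of 1 or more. The 90 members (red) lie at -1 or below on both axes at 3 h and within 0.4 of 0 at 24 h.

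The window at 24 h removed many genes that were as low at 3 h. Of 159 genes with a difference of -1 or less in both genotypes at 3 h, 69 were outside it, 14 of them below -0.4 in both genotypes, 5 above 0.4 in both and 50 outside in 1 genotype only or in opposite directions. At the 3 h threshold Oaf (-1.002 in its weaker genotype) and Edn3 (-1.005) lay just inside with a gene known by a clone name (-1.002), and Ccnd2 (-0.9972), Tspan2 (-0.9944) and Cdc42ep1 (-0.9944) just outside. At the 24 h limit the sizes of the larger difference were 0.398 for Selp, 0.392 for Cd300lb and 0.377 for Lhfpl2 just inside, and 0.412 for Plk2, 0.422 for Ptafr and 0.425 for Cd248 just outside. At the level limit Cd300lb had a mean of 1.001 CPM and Bcl3, just outside, 0.974 CPM.

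The rule set no order among roles, so the 90 genes were sorted, from textbook knowledge and after they were known, into 10 groups. Genes of adhesion and the endothelial surface (11 members) held the 2 largest differences on the log2(CPM + 0.5) scale, Myct1 and Pcdh18, with medians of -1.45 in KO and -1.51 in WT at 3 h. Myct1, a membrane protein found in endothelium, measured 1.47, 2.19, 1.67, 1.79 and 1.03 CPM in KO Dex against 12.2, 12.5 and 13.3 CPM in KO Saline at 3 h. In WT it measured 1.49, 1.96, 1.47, 1.46 and 2.104 CPM in Dex against 15.8, 17.4 and 12.2 CPM in saline. Every dexamethasone library was thus at or below 2.19 CPM and every saline library at or above 12.2 CPM, and the differences were -2.65 ± 0.138 in KO and -2.83 ± 0.173 in WT (SE, n = 5 Dex and 3 saline). At 24 h the ranges ran into each other, with 13.96, 12.1, 10.7, 12.6 and 10.7 CPM in KO Dex against 11.8, 15.04 and 12.2 CPM in KO Saline, and 12.6, 13.2, 11.8, 12.6 and 9.38 CPM in WT Dex against 13.4, 11.8, 13.2 and 11.8 CPM in WT Saline.

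Pcdh18, a protocadherin of cell adhesion, measured 0.91, 0.741, 1.79, 0.966 and 0.65 CPM in KO Dex against 8.68, 10.03 and 8.42 CPM in KO Saline at 3 h. In WT the values were 1.22, 1.78, 1.19, 1.05 and 1.25 CPM in Dex against 11.1, 12.3 and 9.07 CPM in saline. The groups lay far apart in both genotypes (-2.700 ± 0.188 in KO and -2.66 ± 0.155 in WT). Pcdh12, an endothelial protocadherin, differed by -2.38 ± 0.208 in KO and -2.52 ± 0.278 in WT.

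Egfl7, a secreted factor of endothelial cells, was more abundant, with a smaller difference. Its levels at 3 h were 6.77, 6.38, 5.21, 7.101 and 8.72 CPM in KO Dex against 19.6, 23.2 and 17.4 CPM in KO Saline, and 6.71, 7.22, 6.89, 6.28 and 6.47 CPM in WT Dex against 20.5, 24.1 and 16.1 CPM in WT Saline (-1.496 ± 0.162 in KO and -1.51 ± 0.167 in WT). At 24 h they were 25.2, 23.6, 23.5, 20.6 and 22.6 CPM in KO Dex against 21.5, 23.8 and 22.9 CPM in KO Saline, and 24.3, 23.8, 22.99, 25.9 and 28.2 CPM in WT Dex against 21.9, 18.1, 23.96 and 28.3 CPM in WT Saline. All 24 h libraries were above all dexamethasone libraries of 3 h.

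Leukocyte adhesion was represented by Selp, the P-selectin of activated endothelium (-1.64 in KO and -1.72 in WT), and Icam1, a ligand of leukocyte integrins (-1.06 in KO and -1.54 in WT). Selp had the largest 24 h difference of any member, -0.398 in KO and -0.198 in WT. Among junction proteins, the afadin gene Mllt4, which links nectins to actin, differed by -1.45 in KO and -1.402 in WT, the tight junction proteins Cldn1 and Cldn5 by -1.36 in KO and -1.28 in WT and by -1.16 in KO and -1.12 in WT. The sialomucin Podxl (-1.02 in KO and -1.21 in WT) and the C-type lectin receptor Cd93 (-1.06 in KO and -1.06 in WT) were the most abundant surface genes, with mean levels of 79.95 and 51.4 CPM, and had some of the smaller differences.

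**Figure D3:**
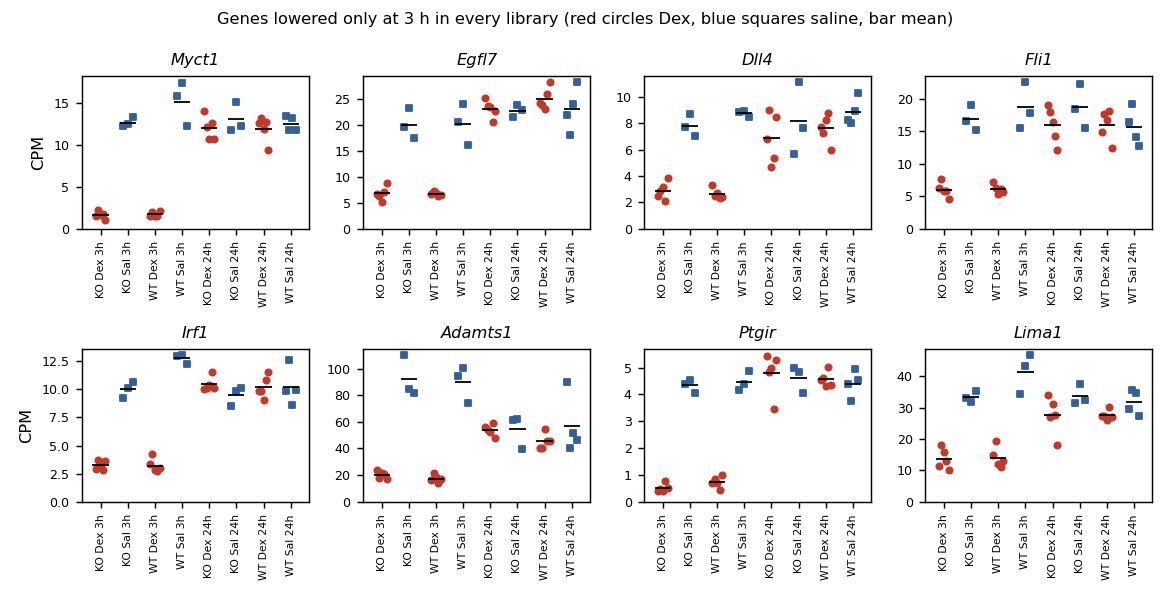
Level in CPM (vertical axes, from 0) of 8 of the 90 genes in every library of the 8 groups, with dexamethasone as red circles, saline as blue squares and a bar at the mean. At 3 h every dexamethasone library lies below every saline library of its genotype, and at 24 h the groups overlap.

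Notch, ephrin and semaphorin genes (9 members) included the Notch ligand Dll4 and products of its signalling. Dll4 measured 2.49, 2.9, 3.13, 2.07 and 3.87 CPM in KO Dex against 7.72, 8.73 and 7.05 CPM in KO Saline, and 3.29, 2.51, 2.69, 2.37 and 2.39 CPM in WT Dex against 8.89, 8.93 and 8.48 CPM in WT Saline. The groups were separate in both genotypes (-1.31 ± 0.154 in KO and -1.56 ± 0.0771 in WT). The Notch target Heyl, a transcriptional repressor, differed by -1.75 in KO and -1.48 in WT, and Nrarp, a target that dampens Notch signalling, by -1.55 in KO and -1.596 in WT, though 79.4% of the exon bases of Nrarp lie in another gene as well. The kit did not mark strand, so reads of such overlapping genes cannot be told apart.

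Of 17 genes measured on the Notch list, these 3 were members (17.6%, against 0.751% of all genes), and the same 3 were the only ones at -1 or less in both genotypes. The list's median difference at 3 h was -0.62 in KO and -0.54 in WT, against -0.02 and -0.07 over all genes, and the lists were drawn up with earlier results of these data known. Dtx4 had 5.68, 5.61, 8.702, 4.03 and 6.15 CPM in KO Dex against 11.6, 14.1 and 12.6 CPM in KO Saline, and 4.54, 11.8, 5.35, 4.26 and 4.21 CPM in WT Dex against 10.9, 12.8 and 12.3 CPM in WT Saline. The second WT Dex library was the single one inside the saline range, and without it the WT difference was -1.30 in place of -1.04. Of the other guidance genes, Efna1 differed by -1.59 in KO and -1.91 in WT, Sema6d, a transmembrane semaphorin, by -1.37 in KO and -1.21 in WT, Dpysl2, a mediator of semaphorin signals on microtubules, by -1.09 in KO and -1.198 in WT, and Nrp2, a co-receptor for semaphorins and VEGF-C, by -1.05 in KO and -1.01 in WT.

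Transcription factors and DNA-associated proteins were the largest role group, with 14 members and medians of -1.33 in KO and -1.49 in WT. Irf1, a factor that drives interferon-stimulated genes, measured 2.94, 3.71, 3.33, 2.84 and 3.64 CPM in KO Dex against 9.23, 10.2 and 10.7 CPM in KO Saline, and 3.35, 4.24, 2.797, 2.69 and 3.01 CPM in WT Dex against 12.97, 13.1 and 12.3 CPM in WT Saline (-1.48 ± 0.08902 in KO and -1.85 ± 0.106 in WT). At 24 h it measured 10.079, 10.145, 10.384, 11.595 and 10.141 CPM in KO Dex against 8.523, 9.842 and 10.101 CPM in KO Saline. All but the first of these KO Dex libraries lay above every KO Saline library. In WT it was back among the saline values, at 9.85, 9.896, 9.08, 10.9 and 11.5 CPM in Dex against 9.84, 12.7, 8.61 and 9.93 CPM in saline. Irf1 was the 1 member among 38 interferon and antigen presentation genes (2.63%), of which 5 were at -1 or less in both genotypes at 3 h.

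Fli1, an ETS factor of endothelial and blood cells, measured 6.21, 7.67, 5.86, 5.77 and 4.52 CPM in KO Dex against 16.5, 19.01 and 15.2 CPM in KO Saline, and 7.12, 6.195, 5.35, 6.08 and 5.58 CPM in WT Dex against 15.5, 22.6 and 17.8 CPM in WT Saline. These ranges were separate (-1.43 ± 0.144 in KO and -1.53 ± 0.168 in WT), and the related ETS genes Ets1 (-1.18 in KO and -1.24 in WT) and Elk3, a repressor of the ternary complex type (-1.403 in KO and -1.46 in WT), were also members. Fli1 and Ets1 are neighbours on chromosome 9, 93.4 kb apart.

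Bhlhe40 and Bhlhe41, repressors that act in the circadian clock, were among the most abundant members. Bhlhe40 measured 34.5, 43.7, 29.8, 55.5 and 36.2 CPM in KO Dex against 105, 124 and 77.2 CPM in KO Saline, and 39.98, 32.6, 42.9, 42.5 and 47.4 CPM in WT Dex against 144, 137 and 113 CPM in WT Saline at 3 h. The groups did not overlap (-1.35 ± 0.251 in KO and -1.67 ± 0.139 in WT), and Bhlhe41 differed by -1.23 in KO and -1.603 in WT. At 24 h the differences were 0.26 in KO and 0.05 in WT for Bhlhe40 and 0.09 in KO and -0.37 in WT for Bhlhe41. These were the 2 members among 18 clock genes (11.1%), of which 4 were at -1 or less in both genotypes and 2 at 1 or more.

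Timeless, a protein of the replication fork (-1.58 in KO and -1.65 in WT), and Ahr, the receptor for dioxins and other aryl hydrocarbons (-1.44 in KO and -1.59 in WT), followed Irf1 in size. Cxxc5, a zinc finger protein that binds CpG-rich DNA, differed by -1.503 in KO and -1.44 in WT. Zeb2 (-1.17 in KO and -1.17 in WT) and Snai2 (-1.09 in KO and -1.16 in WT), repressors known from the epithelial-mesenchymal transition, and Ddit3, a factor of the stress response of the endoplasmic reticulum (-1.08 in KO and -1.32 in WT), had smaller differences.

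Receptors and secreted ligands (6 members) were scarce transcripts, with a median level of 2.44 CPM. Ptgir, the prostacyclin receptor, measured 0.402, 0.483, 0.407, 0.767 and 0.503 CPM in KO Dex against 4.399, 4.55 and 4.06 CPM in KO Saline, and 0.678, 0.847, 0.682, 0.438 and 1.01 CPM in WT Dex against 4.15, 4.38 and 4.89 CPM in WT Saline. The groups were far apart (-2.27 ± 0.0997 in KO and -2.03 ± 0.131 in WT). S1pr2, a receptor for sphingosine 1-phosphate, differed by -1.36 in KO and -1.55 in WT, and the growth factors Pdgfa and Fgf9 by -1.14 in KO and -1.09 in WT and by -1.17 in KO and -1.04 in WT. Edn3, which encodes endothelin 3, differed by -1.005 in KO and -1.05 in WT.

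Adrb3, the beta-3 adrenergic receptor known from fat cells, varied most between genotypes. It measured 0.991, 0.999, 0.285, 0.568 and 0.68 CPM in KO Dex against 3.61, 2.48 and 1.65 CPM in KO Saline, and 0.44, 0.731, 0.614, 0.643 and 0.312 CPM in WT Dex against 8.12, 2.58 and 5.95 CPM in WT Saline (-1.35 ± 0.3203 in KO and -2.42 ± 0.456 in WT). The dexamethasone levels were alike in both genotypes, and WT Saline held the highest values and the widest spread. Tusc5, a protein of fat cell membranes, had the same order, with 4.74, 5.09, 3.78, 3.92 and 4.35 CPM in KO Dex against 13.4, 9.905 and 9.14 CPM in KO Saline, and 3.83, 5.49, 4.06, 4.29 and 4.05 CPM in WT Dex against 20.1, 13.997 and 20.4 CPM in WT Saline. The summed level of 10 adipocyte markers, none of them a member, was 1024, 1150.0, 876, 1252 and 1164 CPM in KO Dex against 929, 790.0 and 796 CPM in KO Saline, and 806, 1429, 1108, 979.9 and 1151 CPM in WT Dex against 1456, 951 and 1292 CPM in WT Saline. The first and the third WT Saline libraries were high in Adrb3, Tusc5 and this sum, whose part in the difference between genotypes was not tested. For Adrb3, 24.9% of the exon bases also lie in another gene.

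Enzymes of the matrix and its glycans (6 members) had the lowest median of any role group in WT, -1.70, and -1.35 in KO. Adamts1, a secreted metalloprotease that cleaves versican, measured 24.2, 18.01, 21.8, 20.8 and 16.7 CPM in KO Dex against 110.1, 84.5 and 81.4 CPM in KO Saline, and 15.99, 21.3, 18.3, 14.1 and 17.2 CPM in WT Dex against 94.4, 100.3 and 74.004 CPM in WT Saline (-2.15 ± 0.165 in KO and -2.33 ± 0.164 in WT). At 24 h it measured 55.9, 53.6, 52.1, 58.8 and 48.1 CPM in KO Dex against 61.7, 62.1 and 39.3 CPM in KO Saline, and 40.6, 40.1, 54.3, 45.95 and 45.3 CPM in WT Dex against 89.7, 40.3, 51.4 and 46.2 CPM in WT Saline. Its saline level was itself lower at 24 h than at 3 h, with a difference of -0.77 in KO and -0.71 in WT.

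Plau, the urokinase-type plasminogen activator, measured 4.95, 6.83, 5.896, 8.58 and 7.42 CPM in KO Dex against 26.9, 29.7 and 29.3 CPM in KO Saline, and 5.73, 7.04, 6.68, 5.96 and 7.07 CPM in WT Dex against 34.5, 31.8 and 34.5 CPM in WT Saline. The groups were tight and separate (-2.03 ± 0.134 in KO and -2.29 ± 0.0696 in WT). Has3, a hyaluronan synthase, differed by -1.46 in KO and -1.81 in WT, St8sia4, which makes polysialic acid, by -1.24 in KO and -1.58 in WT, the sulfatase Arsi by -1.11 in KO and -1.53 in WT and the membrane protease Adam19 by -1.22 in KO and -1.08 in WT.

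Inflammation and immunity (8 members) had medians of -1.25 in KO and -1.31 in WT. Nos2, the inducible nitric oxide synthase, measured 1.55, 1.13, 1.06, 0.937 and 1.36 CPM in KO Dex against 3.67, 4.43 and 3.12 CPM in KO Saline, and 1.42, 1.34, 1.12, 1.198 and 1.14 CPM in WT Dex against 3.803, 4.59 and 3.79 CPM in WT Saline. Both genotypes were separate at low levels (-1.31 ± 0.158 in KO and -1.38 ± 0.09504 in WT). Tnfaip3, the inhibitor of NF-kB whose upstream bases are printed above, differed by -1.36 in KO and -1.14 in WT, and Tmem173, the DNA-sensing adaptor STING, by -1.18 in KO and -1.23 in WT. The inhibitory receptor Sirpa of myeloid cells differed by -1.15 in KO and -1.07 in WT, the lymphocyte GTPase Gimap4 by -1.01 in KO and -1.22 in WT, and Fam111a, a protease that restricts viruses, by -1.46 in KO and -1.92 in WT.

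Of 21 measured inflammatory and NF-kB genes, 4 were members (19%), namely Tnfaip3, Icam1, Selp and Nos2, and 5 were at -1 or less in both genotypes against 1 at 1 or more. The list's median difference was -0.45 in KO and -0.34 in WT. No chemokine was a member, of 12 measured, and none of 13 macrophage markers. The summed macrophage level at 3 h was 231.7 to 334.4 CPM in KO Dex against 235.2 to 252.9 CPM in KO Saline, and 238.6 to 444.6 CPM in WT Dex against 296.3 to 311.6 CPM in WT Saline. The median sum was 318.9 CPM in KO Dex against 250.9 CPM in KO Saline, and 327.1 CPM in WT Dex against 300.3 CPM in WT Saline. The ranges overlapped in both genotypes. Whether the share of macrophage RNA bears on the members' difference was not tested.

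Genes of actin, small GTPases and transport (12 members) were led by Rassf9, a Ras-association domain protein (-2.53 ± 0.184 in KO and -2.55 ± 0.264 in WT). Lima1, an actin-bundling LIM protein, measured 11.5, 18.1, 15.98, 12.8 and 10.2 CPM in KO Dex against 33.1, 31.8 and 35.3 CPM in KO Saline, and 14.98, 19.3, 12.04, 11.1 and 12.9 CPM in WT Dex against 34.3, 43.4 and 46.997 CPM in WT Saline (-1.28 ± 0.153 in KO and -1.54 ± 0.191 in WT). Rab3il1, an exchange factor for Rab GTPases, differed by -1.68 in KO and -1.52 in WT, Arhgef15, an endothelial guanine nucleotide exchange factor, by -1.38 in KO and -1.400 in WT, Lasp1, an actin-binding LIM and SH3 protein, by -1.25 in KO and -1.48 in WT, and Fscn1, the actin bundler fascin, by -1.28 in KO and -1.25 in WT. Differences in this group were otherwise narrow, since 11 of the 12 lay between -1.05 and -1.68 in each genotype.

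Kinases, phosphatases, adaptors and enzymes of lipid signalling (11 members) had medians of -1.22 in KO and -1.21 in WT. Trib2, a pseudokinase of the Tribbles family, measured 6.37, 6.89, 9.19, 9.91 and 8.78 CPM in KO Dex against 29.8, 28.5 and 27.6 CPM in KO Saline, and 7.45, 8.12, 6.38, 6.75 and 9.43 CPM in WT Dex against 26.6, 30.01 and 22.99 CPM in WT Saline. It stood apart in this group (-1.76 ± 0.1203 in KO and -1.74 ± 0.144 in WT). Itpkb, an inositol trisphosphate kinase, differed by -1.49 in KO and -1.38 in WT, the endocytic adaptor Dab2 by -1.41 in KO and -1.299 in WT, the phosphatase Ptpre by -1.22 in KO and -1.38 in WT, and Spred2, an inhibitor of Ras to ERK signalling, by -1.12 in KO and -1.07 in WT. Among 9 other named genes Fam84b had a difference of -2.16 in KO and -2.46 in WT, but 41.8% of its exon bases lie in another gene, and 4 members are known by clone or model names only.

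**Figure D4:**
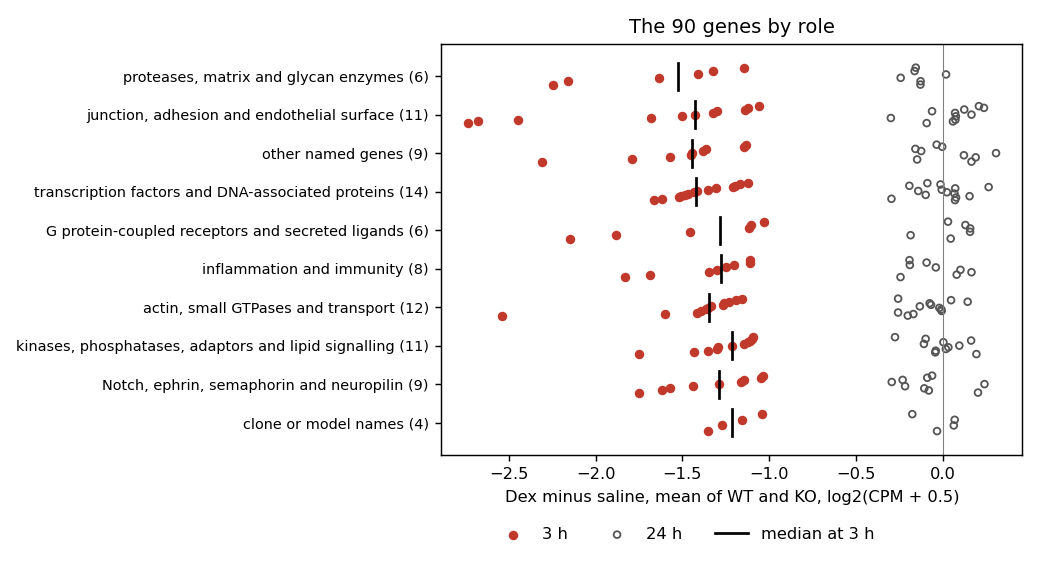
Difference dexamethasone minus saline, as the mean of KO and WT on the log2(CPM + 0.5) scale (horizontal axis), for the 90 genes in 10 role groups (rows, with the number of members), at 3 h (filled red) and 24 h (open). Bars mark the medians at 3 h, and the points below -2 are Myct1, Pcdh18, Rassf9, Pcdh12, Fam84b, Adamts1, Plau and Ptgir.

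Endothelial genes were the list with the most members, 7 of 49 measured (14.3%). They were Egfl7, Cldn5, Fli1, Ets1, Cd93, Arhgef15 and Myct1. Over the whole list 12 genes were at -1 or less in both genotypes at 3 h, 16 lay between -0.5 and 0.5 in both, 3 were above 0.5 in both and 18 lay in none of these ranges. The median was -0.58 in KO and -0.62 in WT. Of the 49 genes 37 (75.5%) lay below 0 in both genotypes, against 45.9% of all genes. The 5 genes at -1 or less in both that were not members lay outside the 24 h window in at least 1 genotype. They were Kdr, the main VEGF receptor (-1.89 in KO and -1.83 in WT), Aplnr, the apelin receptor (-3.399 in KO and -3.300 in WT), and the transcription factors Bcl6b (-2.67 in KO and -2.86 in WT), Sox7 (-1.47 in KO and -1.37 in WT) and Sox18 (-1.400 in KO and -1.57 in WT). Other genes used to identify endothelium were nearer to 0, with Pecam1 at -0.19 in KO and -0.36 in WT, Cdh5 at -0.44 in KO and -0.296 in WT, Tie1 at -0.07 in KO and -0.15 in WT, Ptprb at -0.03 in KO and -0.102 in WT and Vwf at 0.19 in KO and 0.19 in WT. The 3 genes above 0.5 were Sox17 (1.06 in KO and 0.95 in WT), S1pr1 (0.66 in KO and 0.699 in WT) and Rgcc (1.66 in KO and 1.04 in WT).

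The summed level of the 42 endothelial genes outside the members at 3 h was 1663 to 2088 CPM (median 1894) in KO Dex against 1710.0 to 1972 CPM (median 1864) in KO Saline, and 1608 to 2229 CPM (median 1753) in WT Dex against 2025 to 2270.0 CPM (median 2147) in WT Saline. The groups overlapped in both genotypes, and the median was lower in WT Dex than in WT Saline and not in KO. A sum of CPM weighs abundant genes most, and this list includes Fabp4, which is also among the adipocyte markers. The sum is thus not a level of endothelium alone. Whether part of the members' difference comes with a different share of endothelial RNA was not tested.

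**Figure D5:**
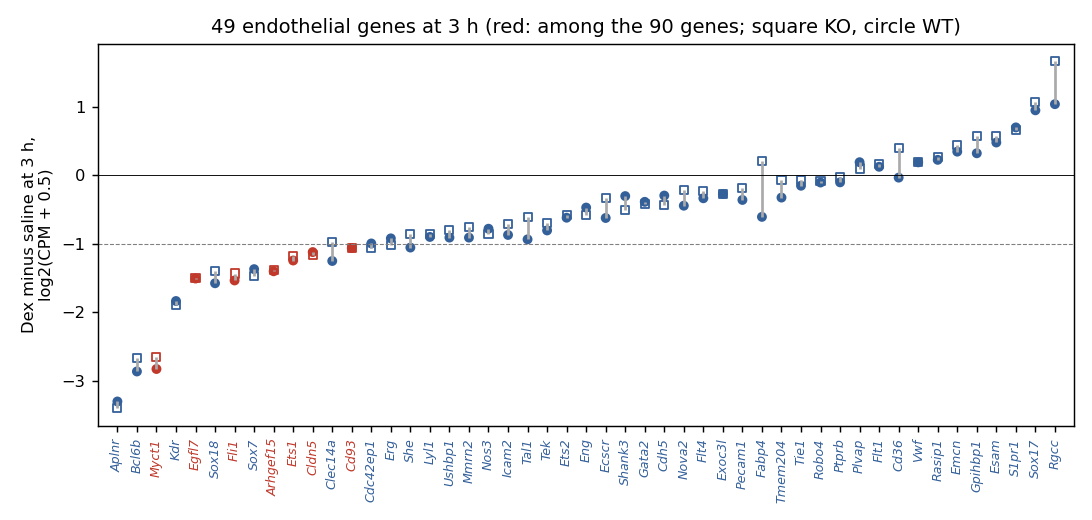
Difference dexamethasone minus saline at 3 h on the log2(CPM + 0.5) scale (vertical axis) for the 49 measured endothelial genes in order of their mean (horizontal axis), with KO as open squares, WT as filled circles, the 7 members in red and the others in blue. The dashed line is the threshold of -1, below which 12 genes lie in both genotypes, while 3 genes lie above 0.5.

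In all, 25 of the 90 genes were on any of the 21 lists. The receptor tyrosine kinase ligands and inhibitors gave 4 of 27 (14.8%: Fgf9, Pdgfa, Efna1 and Spred2), the VEGF, apelin and angiopoietin system 2 of 18 (11.1%: Nrp2 and Dll4), the G protein-coupled receptors 3 of 49 (6.12%: Ptgir, S1pr2 and Adrb3), and the myogenic and satellite cell genes 1 of 23 (4.35%: Heyl). No member was on the lists of BMP and TGF-beta signalling (29 measured), immediate early genes (30), serum response factor and YAP targets (20), glucocorticoid receptor targets raised in many tissues (23), fibroblasts (14), smooth muscle and pericytes (14), Schwann cells (10), adipocytes (10) or muscle fibres (20), nor the 1 lymphocyte and neutrophil marker measured. The glucocorticoid receptor targets had medians of 1.31 in KO and 1.30 in WT at 3 h.

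The genotypes were alike in the size of the difference for most members, with 58 of the 90 within 0.2 of each other and 88 within 0.5. The KO minus WT difference of the 3 h responses had a median of 0.07 and ran from -0.28 to 1.08, the highest being Adrb3, and over all genes the median was 0.05. The response was larger in KO for 34 members and in WT for 56. These values share libraries with the rule and were not tested.

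The genotype contrast is the comparison that the rule did not use. KO minus WT was averaged over the 4 strata of treatment and time, with weights by group size, and tested with edgeR's quasi-likelihood test over 13955 genes at an adjusted p of 0.05. It called 11 of the 90 members (12.2%), against 21.2% of all genes tested. Of the members 7 were higher (7.78%, against 10.4%) and 4 lower (4.44%, against 10.9%), and the median size of the log2 difference was 0.082 against 0.106 over all genes. The members' share called was thus below that of all genes tested, but the shares were not matched for level. The median level was 6.43 CPM in members, against 16.8 CPM over all genes with a mean of 1 CPM or more. The authors' deposited table of the genotype effect also has these 11 under an adjusted p of 0.05, and 21.2% of its 12885 genes.

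Pik3c2b, a class II phosphoinositide 3-kinase, was higher in KO. At 3 h it measured 22.8, 17.8, 18.7, 21.6 and 20.5 CPM in KO Dex against 17.6, 16.5, 15.9, 17.3 and 18.96 CPM in WT Dex, and 49.6, 50.6 and 44.8 CPM in KO Saline against 35.02, 35.6 and 34.9 CPM in WT Saline. At 24 h it measured 56.2, 46.2, 49.5, 43.7 and 53.5 CPM in KO Dex against 35.1, 28.9, 30.3, 42.6 and 39.2 CPM in WT Dex, and 42.1, 58.7 and 43.98 CPM in KO Saline against 40.8, 34.97, 36.3 and 32.3 CPM in WT Saline. KO was above WT without overlap in all strata except dexamethasone at 3 h, and the log2 difference was 0.403 ± 0.0604 (SE, edgeR adjusted p = 7.63e-06). The authors' deposited table gives 0.41 for it.

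Sgms2, which makes sphingomyelin at the plasma membrane, had the largest genotype difference, 0.66 ± 0.106 (edgeR adjusted p = 2.33e-05). At 3 h it measured 3.77, 3.35, 4.31, 3.27 and 4.61 CPM in KO Dex against 2.98, 2.92, 1.88, 2.04 and 2.29 CPM in WT Dex, and 5.45, 11.1 and 10.4 CPM in KO Saline against 4.84, 6.23 and 6.82 CPM in WT Saline. At 24 h it measured 6.54, 4.34, 7.16, 4.88 and 4.16 CPM in KO Dex against 2.797, 2.86, 2.41, 2.85 and 4.11 CPM in WT Dex, and 3.12, 5.24 and 3.85 CPM in KO Saline against 2.59, 3.54, 3.56 and 2.68 CPM in WT Saline. The genotypes were separate after dexamethasone at both times and overlapped in saline.

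Also higher in KO were Bhlhe41 (0.39 ± 0.0803, edgeR adjusted p = 0.000641), Evi2a, a membrane protein gene inside an intron of Nf1 (0.37 ± 0.0944, 0.00408), Edn3 (0.56 ± 0.15, 0.00705) and Trib2 (0.21 ± 0.0646, 0.0203). Lower in KO were Zeb2 (-0.21 ± 0.0637, edgeR adjusted p = 0.0151), Oaf (-0.25 ± 0.0747, 0.0158), Bhlhe40 (-0.23 ± 0.0715, 0.0192) and Dab2 (-0.204 ± 0.0702, 0.0346). The paralogs Bhlhe40 and Bhlhe41 thus differed in opposite directions between the genotypes, while both were lower after dexamethasone at 3 h. The call of Trib2 was lost without the first KO Saline 24 h library (edgeR adjusted p = 0.0517), that of Dab2 without any 1 of 7 libraries and that of the remaining gene, Asap3, without any 1 of 17. Without the 5 libraries whose names are of another series (ML1716), the calls of Bhlhe40 (edgeR adjusted p = 0.0552), Trib2 (0.0607) and Asap3 (0.0616) were lost.

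In saline libraries alone 4 members were called, against 9.12% of all genes, and 8 of the 11 calls were lost. Pik3c2b, Oaf and Bhlhe40 remained, and the fourth was Adrb3, lower in KO (-0.75, edgeR adjusted p = 0.0374). The lost calls had smaller differences in saline for Bhlhe41 (0.16, edgeR adjusted p = 0.49), Evi2a (0.15, 0.567), Edn3 (0.33, 0.398), Zeb2 (-0.09, 0.637), Dab2 (-0.15, 0.441) and Sgms2 (0.51, 0.0525). Trib2 (0.29, edgeR adjusted p = 0.0677) and Asap3 (0.25, 0.201) were also lost. Fewer libraries enter the saline contrast, and a difference in the genotype effect between dexamethasone and saline was not tested here.

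Saline levels of most members were alike at both times, with 81 of 90 within 0.5 in both genotypes, a smaller share than the 93.9% of all genes. The median of saline 24 h minus 3 h was 0.01 in KO and -0.20 in WT, against 0.05 and 0.02 over all genes. Adamts1 and Sgms2 were the 2 members lower at 24 h by 0.5 or more in both genotypes, with -1.02 in KO and -0.85 in WT for Sgms2. In the dexamethasone libraries the members' median of 24 h minus 3 h was 1.31 in KO and 1.26 in WT. Such a rise follows from the rule, which also bears on the saline levels at 3 h, so these values were not tested.

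The members were less abundant than most genes and spread over the genome. Their median level was 6.43 CPM against 16.8 CPM over all genes, and 1.54 against 3.56 CPM per kilobase of exon, with 31 members at 10 CPM or more and 9 under 2 CPM. Among the most abundant were Bhlhe40 (107 CPM), Podxl, Bhlhe41 (72.8 CPM) and Mllt4 (66.6 CPM). In the GENCODE annotation of GRCm38, which holds 89 of them, 4 pairs lay within 500 kb of each other. S1pr2 (chr9:20962361-20976781) and Icam1 (chr9:21015985-21028817) were 39.2 kb apart, Dtx4 (chr19:12466338-12501454) and Fam111a (chr19:12545740-12589768) 44.3 kb, Tmem173 and Cxxc5 88.8 kb, and Fli1 (chr9:32422204-32542861) and Ets1 (chr9:32636221-32757820) 93.4 kb. Exon overlap with another gene of 20% or more was found for Nrarp, Fam84b and Adrb3, as given, and for Dok4 (31.2%) and Pdgfa (26.1%).

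The median gene span was 25.8 kb in members and 25.3 kb over all genes. The median 3′ UTR was 1880 bases in members, against 1610 bases in the genes raised only at 3 h and 1220 over all genes. The AU-rich pentamer ATTTA, known from unstable messages, was present in the 3′ UTR of 73 of 89 members (82%), against 78.3% of the genes raised only at 3 h and 70.8% of all genes. Its median density was 1.21 per kilobase in members, against 1.48 in the genes raised only at 3 h and 1.33 over all genes. The longer motif TATTTAT was found in 36% of members, against 43.4% of the genes raised only at 3 h and 31% of all genes. A longer 3′ UTR and a larger share with ATTTA were thus seen in both sets that responded only at 3 h. Per kilobase, ATTTA was less dense in members than over all genes and denser in the genes raised only at 3 h. No test was made of these differences, since members share the choice by level and response.

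RefSeq promoters of 300 bases, from 250 before to 50 after the gene start, were matched for 62 members and for 9553 of all genes. Of a gene with several listed promoters only the first was searched. On both strands CAGGAA, the form of the ETS site sought, was found in 29% of members' promoters (18 of 62, 95% Wilson interval 19.2 to 41.3%) against 26% of all. The AP-1 site TGANTCA was found in 9.68% (6 of 62, 4.51 to 19.5%) against 4.7%. The E-box CACGTG was found in 14.5% (7.83 to 25.3%) against 10.6%. The letters TATAAA of a TATA box were found in 12.9% (6.69 to 23.4%) against 7.29%. They were counted anywhere in the 300 bases, so this is not a share of promoters with a TATA box in its usual place. These 4 intervals include the shares over all promoters, and they cover counting error only. A narrow form of the NF-kB site, GGGA and TTCC with any 2 bases between them, was in 1.61% against 1.39%. Other forms of that site were not sought, so its absence from a promoter does not exclude them. The RBPJ site GTGGGAA of Notch signalling was in 1.61% (1 of 62, 0.285 to 8.59%) against 6%. The glucocorticoid receptor element AGAACA was in 6.45% (4 of 62, 2.54 to 15.4%) against 12%. Both intervals include the shares over all promoters. An inverted repeat of CTCC and GGAGA with any 1 base between them was in 1.61% against 0.733%. The full glucocorticoid receptor palindrome, AGAACA and TGTTCT with any 3 bases between them, was in none of the 9553. The single element is part of this palindrome, and the windows do not reach distant enhancers.

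Within groups the members varied together only weakly. The median pairwise Pearson correlation of deviations from the group means over 33 libraries was 0.13 among members, 0.06 among all genes, 0.11 among 84 genes raised only at 3 h and 0.26 among the 42 endothelial genes outside the members. These correlations share library depth and tissue makeup and are given as a description.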

How the data were processed

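Per the labels, RNA libraries of mouse quadriceps were made with an Illumina TruSeq RNA kit that does not mark strand. The authors deposited raw read counts per gene symbol in 1 file for each library. STAR, HTSeq, limma 3.40.6 and mm10 are named in the submitters' processing notes, and what each tool did, which annotation was used and whether strand was counted is not given in the sources used here. Reads assigned to no gene (24.6 to 33.2%) and ambiguous reads (0.188 to 0.3%) were left out of library totals. From the authors' deposited table of the genotype effect, its log2 values and adjusted p-values were read, per the file headers, only to be set beside the fit.

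CPM were computed from gene totals and log2(CPM + 0.5) averaged by group. The members and the 21 gene lists were chosen with earlier results of these data known, and the members were sorted by role after they were known. Genotype was tested in R 4.3.3 with edgeR 4.0.16 on the counts, with filterByExpr, TMM factors of 0.932 to 1.09, 8 group means in 1 quasi-likelihood fit and Benjamini-Hochberg adjustment over 13955 genes, which included all 90 members. Each stratum's KO minus WT was weighted by group size. The script was tested on simulated data. Libraries are numbered in the order of their listing, and no pair of libraries had identical counts. Alternatives were other scalings (TMM, and size factors of DESeq2 1.42.0), pseudocounts, thresholds and level limits, leaving out each library, and saline libraries alone. 5 libraries carry names of another series (ML1716 rather than ML1715), which the labels do not call a batch.

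Named members are, by rule, the 20 with the largest mean difference at 3 h, the 10 most abundant, those on a list (up to 8 a list), up to 10 called for genotype, up to 8 of each role group, and those next to a threshold. Asap3, the members named for 24 h overlap or edgeR fold change, Adrb3 in saline and the endothelial genes named outside the members were chosen after their values were seen. Sequences and promoter windows are from RefSeq (GRCm38.p6), and spans, exons and 3′ UTRs from GENCODE on GRCm38.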

Additional observations from a re-analysis of the deposited data

Results flagged for a closer look

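In 90 sets of 4 or 5 libraries (the member level and the genes described by library), 8 held 1 library far from the others, where chance gives about 1 in 20. The mean level of the members was 0.494 in WT Dex 24 h replicate 4, against 0.285 to 0.344 in the other libraries of that group. WT Dex 3 h replicate 2 was high in Dtx4 (11.8 CPM, against 4.21 to 5.35 CPM in the others) and Pcdh18 (1.78 CPM, against 1.05 to 1.25 CPM). That library was the highest of its group in 34 of the 90 members. Pcdh18 was also high in KO Dex 3 h replicate 3 (1.79 CPM, against 0.65 to 0.966 CPM) and KO Dex 24 h replicate 1 (7.86 CPM, against 6.59 to 6.92 CPM). Irf1 was high in KO Dex 24 h replicate 4 (11.6 CPM, against 10.1 to 10.4 CPM). Ptgir was high in KO Dex 3 h replicate 4 (0.767 CPM, against 0.402 to 0.503 CPM), and Sgms2 in WT Dex 24 h replicate 5 (4.11 CPM, against 2.41 to 2.86 CPM). Except in Dtx4, each flagged library at 3 h remained outside the range of its saline group.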

How the results depend on the processing

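The number of genes that met the rule was 90. It was 45 with a pseudocount of 2 (40 of them among the 90), 55 with a minimum mean of 5 CPM, 158 with a 3 h threshold of -0.8 and 53 with -1.2. It stayed within 1.5 times 90 under TMM (74), DESeq2 size factors (73), no level minimum (93), 24 h windows of 0.3 (68) and 0.5 (111), edgeR fold changes (102, of which 80 shared) and without the ML1716 libraries (96, of which 78 shared). Leaving out each library in turn gave 83 to 94 genes, 81 to 89 of them shared, and 50 of the 90 met the rule whichever 1 library was left out. With a pseudocount of 2, chosen for this value after seeing the data, the members' median at 3 h was -1.01 in KO and -1.05 in WT. Another scaling moved the median of all genes by 0.081 or less. The members called for genotype were 11, and 9 to 12 when 1 library was left out, but 4 in saline libraries only, where fewer libraries enter. Of 429 alternative values for single genotype genes 391 kept their call, 38 lost it and 0 changed sign. Pik3c2b and Oaf kept it in all 39 alternatives. Dab2 lost it without KO Dex 3 h replicates 3 or 5, KO Saline 3 h replicate 3, KO Dex 24 h replicate 5, WT Dex 3 h replicate 2, WT Saline 3 h replicate 3 or WT Saline 24 h replicate 2. On the given strand alone CAGGAA was in 17.7% of the members' promoters, and the NF-kB, RBPJ and inverted-repeat motifs in 0. No paired analysis was possible because replicate numbers here follow only the order of listing. Depth limits the 9 members under 2 CPM most.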
